A study of Mus musculus with 20 samples.

Results

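The hippocampus proper is divided into the fields CA1, CA2 and CA3, and 10 genes that mark the pyramidal neurons of these fields were followed in the hippocampal RNA of adult mice exposed to air pollution before birth. They were 5 markers of CA1 (Wfs1, Fibcd1, Mpped1, Pou3f1 and Nov), 3 of CA2 (Rgs14, Pcp4 and Amigo2) and 2 of CA3 (Bok and Iyd). They were chosen by gene symbol among the 48709 genes of the deposited count table, and all 10 were among the 19797 genes with enough reads to be tested. RNA-seq of ribosomal RNA-depleted libraries was available for 20 hippocampi of C57BL/6 mice, taken from the right hemisphere, with 5 animals of each sex in the control group and in the nPM group. nPM is nano-sized particulate matter collected from urban air, which the pregnant dams inhaled 3 days a week, 5 h a day, from gestational day 2 until birth. The labels give the dose as 300 mg/m3 and the methods give the same number in micrograms. Control dams breathed filtered air in parallel, and exposure ended at birth. The labels give ages of 17.71 to 18.29 weeks for females and 18.57 to 19.14 weeks for males. The methods describe EdU injections before tissue collection for male mice, since neurogenesis was examined in males only. Sex, age at collection and these injections thus cannot be told apart. The litter of each animal is not given in the sources used here, so the p-values measure the spread between animals of a group without regard to shared dams.

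Pyramidal neurons of CA3 receive the mossy fibers of the dentate gyrus and send Schaffer collaterals to CA1, the main output field, while the small CA2 field between them resists some forms of synaptic plasticity and is known for its part in social memory. The fields keep separate gene programs in adult life, and each marker is made by the neurons of its field at a far higher level than by its neighbors. Several of the markers are also made outside the hippocampus, for example Wfs1 and Mpped1 in neocortex and Pcp4 in Purkinje cells and striatum. In whole-hippocampus RNA, fewer cells of a field and less RNA per cell cannot be told apart.

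Promoter sequences were found in RefSeq for 7 of the 10 markers (all but Pou3f1, Nov and Rgs14). The 250 bases before the transcription start are given here for 6 of them, because the relations between markers from animal to animal turn on them: those of Fibcd1, Amigo2, Bok and Iyd with Rgs14, and those of Wfs1 and Mpped1 with Nov. The sequences run 5′ to 3′ on the strand of the gene in GRCm38.p6, the build of the mm10 alignments. Capitals mark 3 kinds of motif, found on both strands: the GC box (GGGCGG or CCGCCC), the TATA motif (TATAAA or TTTATA) and an E-box of the type bound by NeuroD factors (CAGATG or CATCTG).
Fibcd1: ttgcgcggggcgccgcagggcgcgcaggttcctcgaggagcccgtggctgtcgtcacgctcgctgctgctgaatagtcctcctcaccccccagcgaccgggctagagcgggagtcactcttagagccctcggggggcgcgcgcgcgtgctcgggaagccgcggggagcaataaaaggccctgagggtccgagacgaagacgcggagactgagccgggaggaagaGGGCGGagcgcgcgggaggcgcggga
Amigo2: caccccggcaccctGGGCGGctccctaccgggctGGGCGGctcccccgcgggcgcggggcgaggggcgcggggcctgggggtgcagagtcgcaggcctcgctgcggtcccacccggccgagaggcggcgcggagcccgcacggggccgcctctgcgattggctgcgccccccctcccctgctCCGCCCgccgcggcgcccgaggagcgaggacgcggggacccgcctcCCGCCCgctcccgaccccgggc
Bok: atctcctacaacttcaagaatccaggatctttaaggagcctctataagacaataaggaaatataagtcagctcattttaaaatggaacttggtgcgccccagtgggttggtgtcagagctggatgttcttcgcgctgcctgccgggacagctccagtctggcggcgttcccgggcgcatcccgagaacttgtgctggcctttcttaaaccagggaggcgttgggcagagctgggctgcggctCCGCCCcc
Iyd: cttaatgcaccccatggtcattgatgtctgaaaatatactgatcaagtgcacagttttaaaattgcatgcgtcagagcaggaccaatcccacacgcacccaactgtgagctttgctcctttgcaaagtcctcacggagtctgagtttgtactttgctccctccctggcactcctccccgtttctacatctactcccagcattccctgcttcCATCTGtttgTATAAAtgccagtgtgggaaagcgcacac
Wfs1: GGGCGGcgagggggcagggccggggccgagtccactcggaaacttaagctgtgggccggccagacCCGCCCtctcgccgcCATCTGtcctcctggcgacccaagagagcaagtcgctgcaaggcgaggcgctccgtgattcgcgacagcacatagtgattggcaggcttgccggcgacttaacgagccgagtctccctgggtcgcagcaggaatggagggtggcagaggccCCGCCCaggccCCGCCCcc
Mpped1: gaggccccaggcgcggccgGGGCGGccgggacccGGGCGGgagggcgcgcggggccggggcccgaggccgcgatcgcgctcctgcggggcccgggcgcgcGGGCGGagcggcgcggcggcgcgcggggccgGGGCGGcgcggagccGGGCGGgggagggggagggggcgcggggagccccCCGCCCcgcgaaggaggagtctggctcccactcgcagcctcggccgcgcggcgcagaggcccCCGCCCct

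These windows lie at chr2:31846006-31846255 for Fibcd1, chr15:97247288-97247537 for Amigo2, chr1:93685325-93685574 for Bok, chr10:3540024-3540273 for Iyd, chr5:36988983-36989232 for Wfs1 and chr15:83779773-83780022 for the upstream start of Mpped1. The starts are those of RefSeq. In the annotation used for counting, Mpped1 begins at 83779467, so its window lies inside the gene. Most of the Wfs1 window and the last bases of the Iyd window also lie inside the gene (Wfs1 to 36989205, Iyd from 3540240). The windows of Mpped1, Amigo2 and Fibcd1 were rich in CpG dinucleotides, with 47, 38 and 34 against a median of 6 over 32851 mouse promoters of this length. The Wfs1 window held 23 CpG and that of Bok held 12. The Iyd window held 5, and it was the only one of the 6 with a TATA motif, which began 29 bases before the start and is found in 12.4% of all promoters. GC boxes numbered 7 in the Mpped1 window, 4 each in those of Wfs1 and Amigo2, and 1 each in those of Fibcd1 and Bok, and 32.7% of all promoters held at least 1. The NeuroD-type E-box was found in the windows of Wfs1 and Iyd and in 14.4% of all promoters. The windows not shown, of Pcp4 and of the downstream start of Mpped1, held 3 and 2 CpG and no match to these motifs. None of the 8 windows held the octamer recognized by POU factors (ATGCAAAT or ATTTGCAT), which 1.6% of all promoters hold, or the symmetric E-box CAGCTG, which 13% hold. A match of letters is a description of the window and not a mapped binding site.

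The 20 libraries held 19092067 to 38663408 counts. Values are given below in CPM, counts scaled by library size and TMM factors to the usual CPM unit, for 1 gene between animals, and in RPKM, which also divides by gene length, between genes. A count of 0 would allow up to 3 counts, or 0.0776 to 0.157 CPM, and the lowest count of any marker was 28. Libraries differed in the levels of genes that mark other tissues and cell types. The summed level of 6 choroid plexus genes ranged from 31.9 to 8172 CPM, with high and low libraries in both sexes. Beside this, 3 libraries stood apart, and values without them are given where a result depends on them. The control male 1 library had the lowest summed levels of oligodendrocyte genes (2209 against 2717 to 5115 CPM), dentate granule cell genes (152 against 205 to 471 CPM) and excitatory neuron genes (1535 against 1667 to 3417 CPM). The nPM female 1 library had the highest summed level of striatal genes (364 against 49.5 to 121 CPM), the highest of dentate genes and the lowest of neocortical genes (107 CPM). The nPM male 1 library had the highest summed level of thalamic genes (431 against 186 to 338 CPM) and the lowest of further CA1 genes (167 CPM). No gene of these lists was at 0 in any library, and the part of these differences in the results below was not tested. Pou3f1, Pcp4 and Amigo2 each overlap another annotated gene (Gm2164, Igsf5 and Pced1b), whose counts reached at most 159, 72 and 118. No strand setting for the counting is given in the sources used here, so reads in the shared parts are uncertain.

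All 10 markers were expressed in every hippocampus. Per gene length, Pcp4 stood highest at 49.4 ± 14.8 RPKM (SD, n = 20), followed by Mpped1 at 26.3 ± 4.58, Rgs14 at 25.7 ± 6.03, Nov at 25.6 ± 13.5 and Wfs1 at 20.3 ± 5.56 RPKM. Fibcd1 reached 14.8 ± 3.26, Bok 14.5 ± 3.62, Amigo2 7.64 ± 1.60, Pou3f1 5.36 ± 0.943 and Iyd 3.77 ± 1.38 RPKM. The order of neighbors did not hold from animal to animal in the upper middle of this range: Mpped1 was above Rgs14 in 10 of 20 hippocampi, Rgs14 above Nov in 11, Nov above Wfs1 in 11, and Fibcd1 above Bok in 10. Pcp4 was above Mpped1 in 18 of 20 animals, Wfs1 above Fibcd1 in 18, Bok above Amigo2 in 20, Amigo2 above Pou3f1 in 19 and Pou3f1 above Iyd in 17. Field and level were not tied, since each field had a marker in the lower range and CA2 held both the highest and the third lowest.

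**Figure D1:**
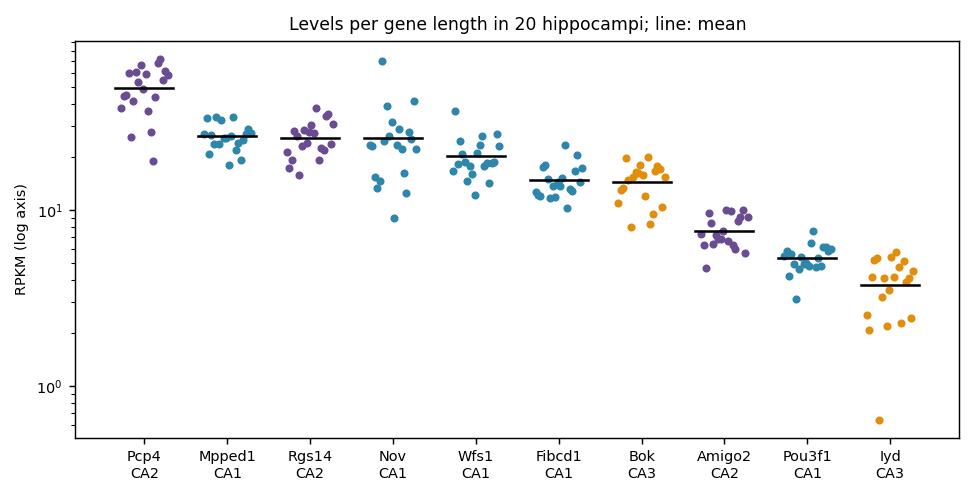
Level per gene length (RPKM, log axis) of each marker in the 20 hippocampi, with the mean as a line and the CA field under each name. Pcp4 had the highest mean and Iyd the lowest, and the point far under the others for Iyd is control male 1 at 0.643 RPKM.

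Markers differed more in how much they varied between animals of a group. The SD within groups, on the log2 scale, was 0.704 for Iyd and 0.578 for Nov, above those of 89.4% and 83.1% of all tested genes, whose median was 0.256. Bok (0.417), Pcp4 (0.410), Wfs1 (0.334), Rgs14 (0.333), Amigo2 (0.317) and Fibcd1 (0.303) were also above that median. Mpped1 (0.265) lay close to it and Pou3f1 (0.245) was the only marker under it. From the lowest to the highest animal, Iyd spanned 8.97-fold and Nov 7.84-fold, against 1.87-fold for Mpped1. The extremes fell on few animals. The control male 1 library was lowest for Pou3f1, Rgs14, Bok and Iyd and highest for Nov, and the nPM female 3 library was highest for Fibcd1, Mpped1, Pou3f1, Rgs14, Bok and Iyd.

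**Figure D2:**
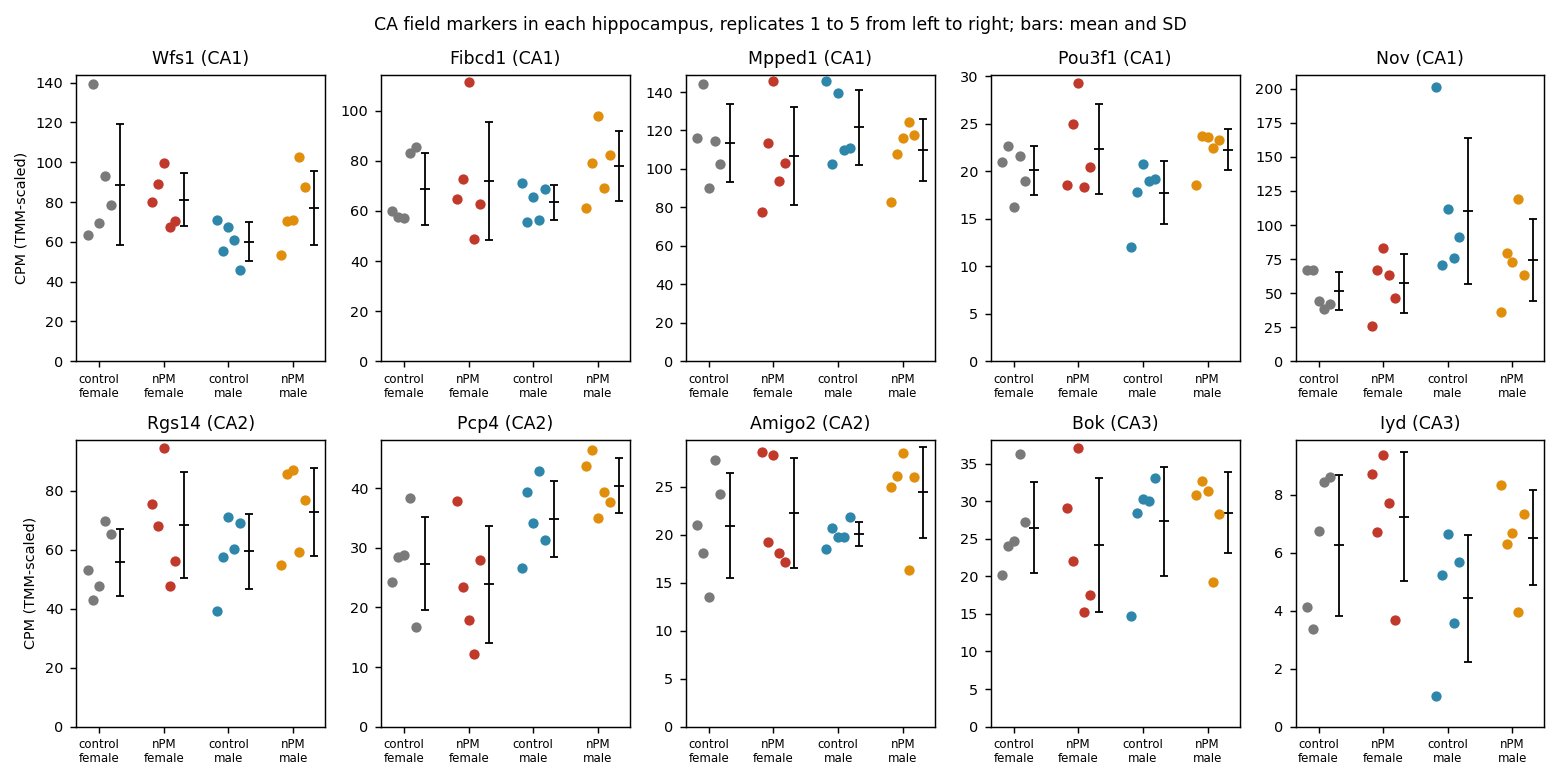
Level of each marker (TMM-scaled CPM, linear axis from 0) in each animal, replicates 1 to 5 from left to right within each group, with the group mean and SD as a bar at the right of the points. The ranges of nPM and control animals overlap for all 10 markers in both sexes, and 3 of 5 nPM males have a Pcp4 level above that of every nPM female.

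The first comparison asks whether exposure before birth left a difference in field markers of the adult hippocampus. With both sexes in 1 limma-voom fit and sex as a covariate, 0 of the 10 markers passed the study's threshold of p under 0.005, which 0.141% of all 19797 genes passed. At p under 0.05 there were 2 of 10 markers, Pou3f1 and Rgs14, where 2.1% of all genes lay, and both had an adjusted p of 1.0 (Benjamini-Hochberg over all genes). With edgeR and DESeq2 the count past 0.005 was also 0. Of the markers 7 were higher and 3 lower in nPM animals, with a median log2 difference of 0.15 against -0.01 over all genes. Intervals for single markers were wide. The 95% interval of the log2 difference was -0.10 to 1.03 for Iyd and -0.75 to 0.23 for Nov, and -0.35 to 0.10 for Mpped1, the narrowest among markers other than Pou3f1.

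Pou3f1, a POU-domain transcription factor also known as Oct6 (chr4:124656807-124660655), was measured in control females at 21.0, 22.7, 16.2, 21.6 and 19.0 CPM and in nPM females at 18.6, 24.99, 29.3, 18.3 and 20.4 CPM. Control males had 12.04, 17.9, 20.8, 18.9 and 19.2 CPM, and nPM males 18.5, 23.7, 23.6, 22.4 and 23.3 CPM. In males 4 of 5 nPM animals were above every control, while the fifth lay within the control range, and in females the groups overlapped, with 2 nPM animals above every control and 1 control under every nPM animal. The log2 difference was 0.24 with an SE of 0.10 in both sexes, 0.33 with an SE of 0.13 in males (adjusted p = 0.963) and 0.16 with an SE of 0.14 in females (adjusted p = 1.0). Without the control male 1 library, the lowest of all, the difference was 0.18 in both sexes, no longer past p under 0.05, and 0.21 in males.

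Rgs14, a regulator of G protein signaling that limits synaptic potentiation in CA2 (chr13:55369732-55384687), was measured at 53.2, 43.1, 47.8, 69.8 and 65.3 CPM in control females and at 75.4, 67.9, 94.5, 47.9 and 56.0 CPM in nPM females. Control males had 39.3, 57.7, 71.1, 60.2 and 69.2 CPM, and nPM males 54.7, 85.8, 87.1, 59.2 and 76.9 CPM. The groups overlapped in both sexes, with 2 nPM females and 3 nPM males above all controls of their sex. The log2 difference was 0.30 in females (SE 0.18) and 0.29 in males (SE 0.17), where it was 0.15 without control male 1. In both sexes together it was 0.29 with an SE of 0.13 (adjusted p = 1.0). It was 0.19, no longer past p under 0.05, without the control male 1 and nPM female 1 libraries.

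In males alone, 0 of 10 markers passed p under 0.005, where 0.207% of all genes did, and 2 lay at p under 0.05 (Pou3f1 and Fibcd1), where 4.28% of all genes lay. The count past 0.005 was 0 in males with edgeR and with DESeq2 as well. The median log2 difference over the markers was 0.27 against -0.001 over all genes, with 8 markers higher and 2 lower. Fibcd1, a receptor for acetylated sugars such as chitin (chr2:31813290-31846005), was measured at 71.0, 55.7, 65.4, 56.5 and 68.6 CPM in control males and at 61.2, 79.0, 97.9, 69.0 and 82.4 CPM in nPM males. Of the nPM males 3 were above all controls, and 2 lay inside the control range. The log2 difference was 0.29 with an SE of 0.12 (adjusted p = 0.963), and it was 0.19 without nPM male 3.

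Iyd, the iodotyrosine deiodinase that recovers iodide in the thyroid and marks CA3 in the hippocampus (chr10:3540240-3554877), showed the highest estimate and the widest error among the markers in males. Control males had 1.04, 5.22, 6.65, 3.58 and 5.67 CPM, and nPM males 8.32, 6.31, 6.68, 3.95 and 7.35 CPM. The log2 difference in males was 0.73 with an SE of 0.39 (adjusted p = 0.963), and it was 0.33 without control male 1, whose value rested on 28 counts. In females the values ran from 3.36 to 8.63 CPM in controls and from 3.68 to 9.37 CPM in nPM animals, with a log2 difference of 0.23 (SE 0.32). Iyd levels thus overlapped between nPM and control in both sexes.

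Nov, a secreted matrix-associated protein of the CCN family (chr15:54745702-54754039), had the lowest estimate in males. Its levels were 202, 70.7, 112, 76.0 and 91.4 CPM in control males and 36.1, 79.6, 72.9, 119 and 63.6 CPM in nPM males. The log2 difference was -0.56 with an SE of 0.32 (adjusted p = 0.963), -0.32 without control male 1, the highest of all libraries, and -0.33 without nPM male 1. In females it was 0.09 (SE 0.28), with the highest and lowest values both in the nPM group at 82.8 and 25.7 CPM.

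Amigo2, a leucine-rich repeat adhesion protein (chr15:97244074-97247287), depended on 1 animal. Control males lay close together at 18.5, 20.7, 19.7, 19.7 and 21.8 CPM, and nPM males had 24.97, 26.1, 28.6, 16.3 and 26.1 CPM. In the nPM group 4 of 5 males were above all controls and nPM male 4 was under all of them. The log2 difference was 0.25 with an SE of 0.14 (adjusted p = 0.963), and without nPM male 4 it was 0.39, which passed the threshold of 0.005. The number of genes past that threshold was also 78 without this animal, against 41 with it. In females Amigo2 spanned 13.5 to 27.8 CPM in controls and 17.1 to 28.7 CPM in nPM animals, with a log2 difference of 0.13 (SE 0.21).

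The remaining markers did not pass the threshold in males. Wfs1, the endoplasmic reticulum protein wolframin (chr5:36966104-36989205), had 70.9, 55.5, 67.7, 60.7 and 45.9 CPM in control males and 53.6, 70.3, 71.2, 103 and 87.4 CPM in nPM males, a log2 difference of 0.34 (SE 0.17, adjusted p = 0.963). Pcp4, a calmodulin-binding peptide (chr16:96467606-96525793), differed by 0.22 (SE 0.12), Bok, a Bcl-2 family member of the apoptosis pathway (chr1:93685660-93695764), by 0.07 (SE 0.21), and Mpped1, a metallophosphoesterase-domain protein (chr15:83779467-83858494), by -0.15 (SE 0.13). Without control male 1 these differences were 0.13 for Pcp4, -0.13 for Bok and -0.08 for Mpped1, and without nPM male 1 that of Mpped1 was -0.06.

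In females, 0 of 10 markers passed p under 0.005, where 0.0909% of all genes did, and 0 lay at p under 0.05, where 1.99% of all genes lay. With edgeR and DESeq2 the count past 0.005 was also 0. The median log2 difference over the markers was 0.07 against 0.004 over all genes, with 6 higher and 4 lower. Wfs1 spanned 63.3 to 139 CPM in control females and 67.3 to 99.7 CPM in nPM females, and Fibcd1 57.1 to 85.3 CPM and 48.7 to 111 CPM. The estimates ran from -0.21 for Pcp4 (SE 0.27) to 0.30 for Rgs14 (SE 0.18), and every adjusted p was 1.0. In females the interval for Pcp4 reached from -0.79 to 0.38, so that a decrease or an increase of moderate size was not detectable with these animals.

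**Figure D3:**
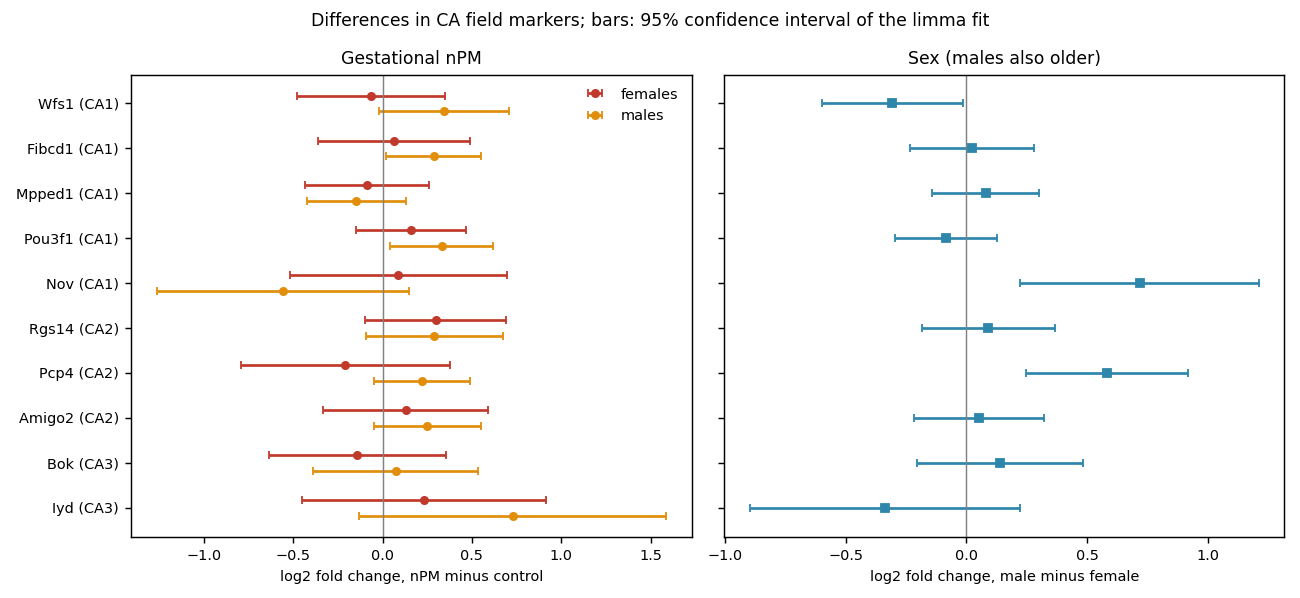
Log2 fold change of each marker for nPM against control in females and in males (left) and for males against females (right), as points with the 95% confidence interval of the limma fit. Intervals for exposure lie above 0 for Fibcd1 and Pou3f1 in males and cross 0 elsewhere, and those for sex lie above 0 for Nov and Pcp4 and below 0 for Wfs1.

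Whether the difference between nPM and control differed between the sexes was tested as the interaction of sex and exposure. None of the 10 markers passed p under 0.005, where 0.217% of all genes did, and 0 lay at p under 0.05, where 3.79% lay. edgeR and DESeq2 also gave 0 of 10 past 0.005. The difference was 0.42 log2 units higher in males than in females for Wfs1 (SE 0.27), 0.45 higher for Pcp4 (SE 0.31) and 0.63 lower for Nov (SE 0.47), with an adjusted p of 0.987 for each. With 1 library left out, the lowest values were 0.25 for Wfs1 (without control female 2) and 0.26 for Pcp4 (without nPM female 4), and that of Nov nearest to 0 was -0.38 (without control male 1). For Rgs14 it was 0.01 (SE 0.27), with a 95% interval of -0.56 to 0.57.

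Males and females were compared with exposure as a covariate. In this comparison 2758 genes were higher and 3389 lower in males, 31.1% of all genes at p under 0.005, and 40.4% had an adjusted p under 0.05. Of the markers, 1 of 10 passed p under 0.005 and 2 of 10 had an adjusted p under 0.05, shares under those of all genes. Pcp4 was measured in control females at 24.3, 28.5, 28.8, 38.3 and 16.8 CPM and in nPM females at 37.9, 23.5, 17.9, 12.3 and 28.04 CPM. Control males had 26.7, 39.3, 34.2, 42.9 and 31.4 CPM, and nPM males 43.7, 46.5, 35.1, 39.5 and 37.7 CPM. Of the 10 females, 5 were under every male. Pcp4 rose by 0.58 on the log2 scale from females to males (SE 0.16, adjusted p = 0.00657). The difference was 0.81 within nPM animals (adjusted p = 0.0382) and 0.35 within controls (adjusted p = 0.177). The interaction, given above, had an adjusted p of 0.987.

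Nov had an adjusted p under 0.05 in the same comparison. Control females had 66.9, 66.7, 44.2, 38.1 and 42.2 CPM and nPM females 25.7, 66.9, 82.8, 63.4 and 46.8 CPM, beside the male values given above. Every control male was above every control female, whereas nPM males and nPM females overlapped, at 36.1 to 119 CPM and 25.7 to 82.8 CPM. The log2 difference of males to females was 0.72 (SE 0.24, adjusted p = 0.0201). Within controls it was 1.01 (adjusted p = 0.0179) and within nPM animals 0.40 (adjusted p = 0.482). Without control male 1 and nPM female 1 it was 0.46, while that of Pcp4 was 0.72 and still passed p under 0.005.

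Wfs1 was lower in males by 0.31 log2 units (SE 0.14, adjusted p = 0.0860), and the other 7 markers had adjusted p-values of 0.336 or more. Ages did not overlap between the sexes, and with age added as a covariate 84 genes were left at p under 0.005 and 0 of the markers, with a difference of 0.51 for Pcp4 and 1.15 for Nov. The choroid plexus genes were also higher in males, in 6 of 6 genes, by 0.79 to 1.78 log2 units, and 0 of 6 past p under 0.005. Their summed level ran from 35.1 to 8172 CPM in females and from 31.9 to 7282 CPM in males. Their part in the marker differences was not tested.

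Further markers of the fields, listed beside the 10, were read in the same fits. Of 4 CA1, 7 CA2 and 7 CA3 genes, 0 passed p under 0.005 for exposure in both sexes, in males, in females or for the interaction. The median log2 difference for exposure in both sexes was 0.04, 0.12 and 0.03 in these lists. In males Cdh24, a cadherin on the CA3 list, was higher by 0.55 (adjusted p = 0.963). Between the sexes, 0 of 4 CA1, 1 of 7 CA2 and 1 of 7 CA3 genes passed p under 0.005, where 31.1% of all genes did. Directions were mixed, with 3 of 7 CA2 genes and 4 of 7 CA3 genes higher in males. The median log2 differences were -0.02 and 0.007. Stard5, a sterol carrier on the CA2 list, was lower in males by 0.27 (adjusted p = 0.0134), and Cdh24 was lower by 0.85 (adjusted p = 0.000322). Among 4 genes of excitatory neurons at large, Camk2a, the alpha subunit of calcium/calmodulin-dependent kinase II, was lower in males by 0.55 (adjusted p = 0.000648), while Neurod6, a transcription factor of pyramidal neurons, differed by 0.10.

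Markers of neighboring tissue were read as measures of the dissection. None of the 6 dentate, 7 neocortical, 6 thalamic, 7 striatal, 6 choroid plexus and 5 oligodendrocyte genes passed p under 0.005 for exposure or the interaction. The neocortical list was lower in nPM animals in 7 of 7 genes with both sexes, with a median of -0.24. The choroid plexus list was higher in nPM females in 6 of 6 genes (median 0.89) and lower in nPM males in 6 of 6 (median -0.37). The thalamic list had a median of -0.24 in females and 0.12 in males. Their part in the marker values was not tested.

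The markers were then compared across animals after the mean of each group was subtracted. This removed mean differences between the groups, while a relation could still differ between the sexes, as values within each sex below show. Among the 45 pairs, 14 had a Pearson's r of 0.5 or more and 2 had an r of -0.5 or less. Of all relations of a marker with a gene that was no marker, 7.0% had an r of 0.5 or more and 6.59% an r of -0.5 or less. Pairs of the same field had a median r of 0.47 over 14 pairs, 6 of them at 0.5 or more, and pairs of different fields had a median of 0.07 over 31 pairs, 8 of them at 0.5 or more. The 6 pairs of a CA2 with a CA3 marker had a median of 0.57, above that of the 10 pairs within CA1 (0.47), so high r was not restricted to markers of 1 field. A permutation p under 0.05, not adjusted, was reached by 17 of the 45 pairs. The share of relations with other genes that reach it was not computed, so this count has no background to be read against. The pairs share animals and genes.

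**Figure D4:**
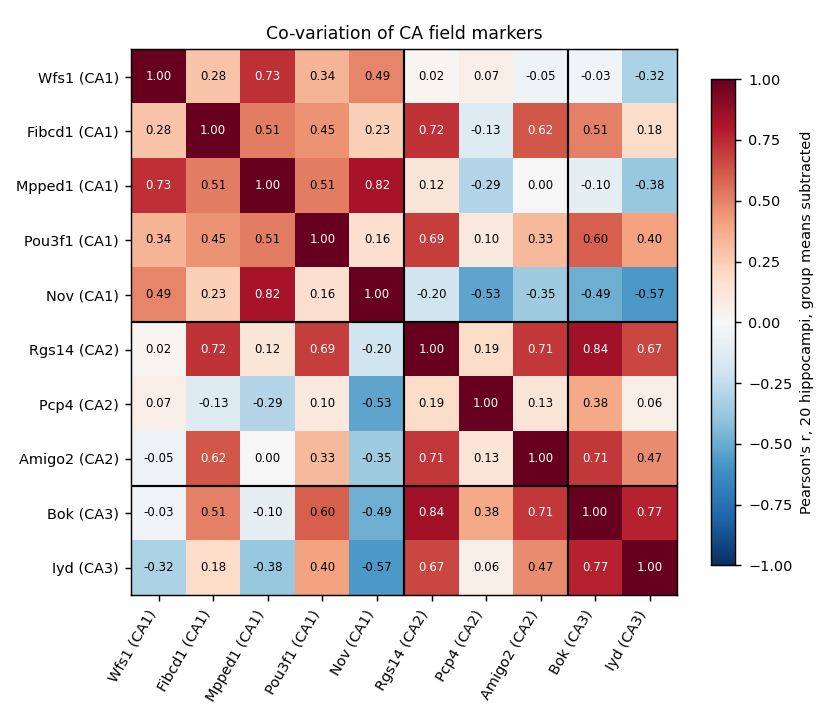
Pearson's r of each pair of markers over 20 hippocampi, with group means subtracted and lines between the CA1, CA2 and CA3 markers. The block of Rgs14, Amigo2, Bok and Iyd is red with r from 0.47 to 0.84, and Nov is blue against the CA2 and CA3 markers.

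The highest r joined markers of different fields. Rgs14 of CA2 and Bok of CA3 had an r of 0.84 (permutation p = 0.00017) and a Spearman's rho of 0.84 (permutation p = 4e-05), and without the 2 animals farthest from the median of Rgs14 the r was 0.75. It was 0.89 within females and 0.79 within males. Of the genes that were no marker, 0.1365% had a higher r with Rgs14. Bok values were 20.1, 24.03, 24.7, 36.3 and 27.2 CPM in control females, 29.1, 22.0, 37.1, 15.3 and 17.5 CPM in nPM females, 14.7, 28.4, 30.4, 30.0 and 33.1 CPM in control males and 30.8, 32.7, 31.4, 19.2 and 28.3 CPM in nPM males. Control male 1 was lowest of all animals and nPM female 3 highest for both genes.

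Other members of this group followed. Bok and Iyd, both of CA3, had an r of 0.77 (permutation p = 0.00086) and a rho of 0.68 (permutation p = 0.00092), with an r of 0.76 without the 2 animals farthest from the median of Bok. Rgs14 and Amigo2, both of CA2, had an r of 0.71 (permutation p = 0.00059) and a rho of 0.72 (permutation p = 0.00067), and 0.74 without 2 animals. Amigo2 and Bok had an r of 0.71 (permutation p = 0.00077) and a rho of 0.77 (permutation p = 0.00015), and 0.75 without 2 animals. Each of these relations had the same sign within females and within males, with r from 0.55 to 0.91.

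Of the CA1 markers, Fibcd1 and Pou3f1 had their highest r with Rgs14, and their r with each other was 0.45. Fibcd1 of CA1 had an r of 0.72 with Rgs14 (permutation p = 0.00125, rho = 0.70 with permutation p = 0.00222), 0.59 without 2 animals and 0.95 without the control male 1 and nPM female 1 libraries. Within females it was 0.92 and within males 0.42. Pou3f1 of CA1 had an r of 0.69 with Rgs14 (permutation p = 0.0046, rho = 0.63 with permutation p = 0.00722), 0.58 without 2 animals, and 0.50 within females against 0.90 within males. With 10 animals of a sex these differences between the sexes were not tested. Without the control male 1 and nPM female 1 libraries, Pou3f1 had its highest r with Mpped1 of its own field, at 0.90. Its r was then 0.71 with Fibcd1, 0.69 with Rgs14, 0.64 with Wfs1 and 0.58 with Nov.

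Nov and Wfs1, both of CA1, had their highest r with Mpped1 of the same field. Mpped1 and Nov had an r of 0.82 (permutation p = 5e-05) and a rho of 0.80 (permutation p = 0.00022), with 0.77 without 2 animals, 0.79 within females and 0.89 within males. Mpped1 was measured at 116, 144, 90.03, 114 and 102 CPM in control females, 77.8, 114, 146, 94.0 and 103 CPM in nPM females, 146, 102, 139, 110 and 111 CPM in control males and 82.8, 108, 116, 124 and 117 CPM in nPM males. Both genes were lowest of their group in nPM female 1 and nPM male 1 and highest of their group in control male 1 and nPM female 3. Wfs1 and Mpped1 had an r of 0.73 (permutation p = 0.00056, rho = 0.76 with permutation p = 0.00046), with 0.67 without 2 animals, and Wfs1 and Nov an r of 0.49 (permutation p = 0.0298, rho = 0.47 with permutation p = 0.0495), with 0.37 without 2 animals.

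Mpped1 also had an r of 0.51 with Fibcd1 (permutation p = 0.0585, rho = 0.46 with permutation p = 0.0657), at 0.31 without 2 animals, and of 0.51 with Pou3f1 (permutation p = 0.0414, rho = 0.56 with permutation p = 0.0261), at 0.32 without 2 animals. The latter was 0.93 within females and -0.03 within males. Over all 20 animals, Wfs1 had an r of 0.02 with Rgs14 and -0.03 with Bok, and Mpped1 an r of 0.12 with Rgs14 and -0.10 with Bok. With Bok the sign differed by sex: 0.47 within females and -0.65 within males for Wfs1, and 0.24 and -0.57 for Mpped1. With Rgs14 these were 0.18 and -0.17 for Wfs1 and 0.20 and 0.01 for Mpped1. Without the control male 1 and nPM female 1 libraries, r with Rgs14 was 0.15 for Wfs1 and 0.44 for Mpped1, and with Bok 0.12 and 0.25. Nov had an r of -0.57 with Iyd (permutation p = 0.0153, rho = -0.48 with permutation p = 0.0477) and of -0.53 with Pcp4 (permutation p = 0.0242, rho = -0.59 with permutation p = 0.0151). Both rested in part on nPM female 1 and control male 1, the 2 animals farthest from the median of Nov. Without them, and with group means taken again, r was -0.33 with Iyd and -0.25 with Pcp4. Of the 45 pairs, 0 then had an r of -0.5 or less, while 20 had an r of 0.5 or more. Pcp4 of CA2 had an r of 0.19 with Rgs14, 0.13 with Amigo2 and 0.38 with Bok.

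**Figure D5:**
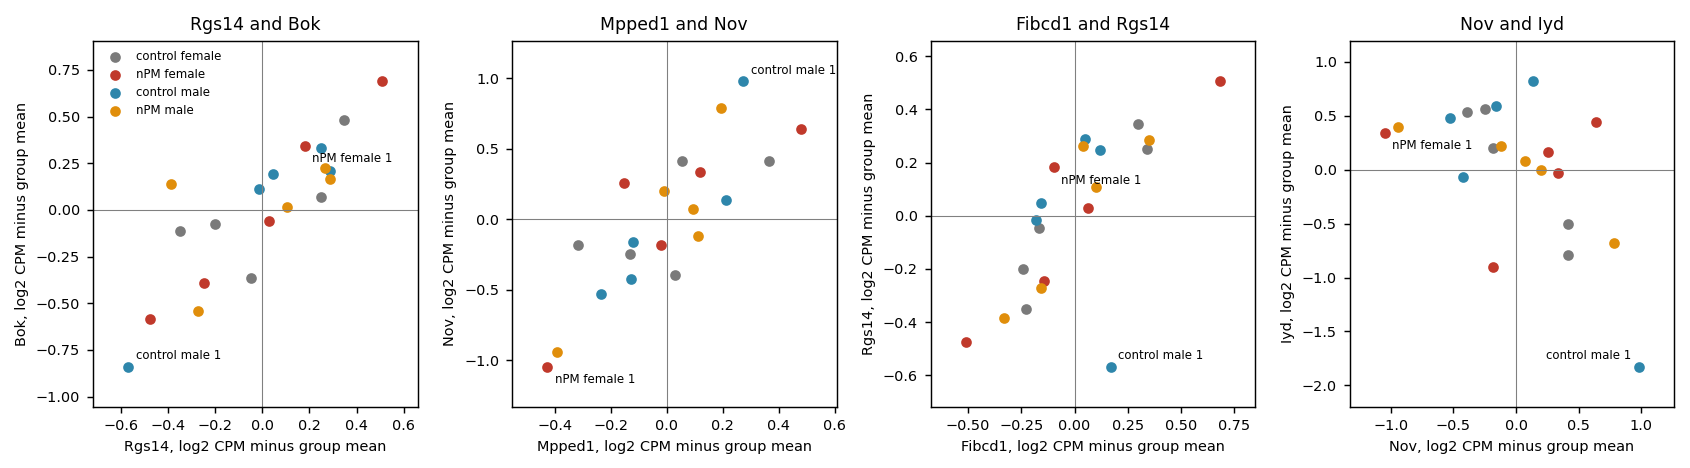
Log2 CPM minus the group mean of 4 pairs of markers in the 20 hippocampi, colored by group, with control male 1 and nPM female 1 named. Rgs14 follows Bok and Fibcd1, with control male 1 off the line in the panel of Fibcd1 and Rgs14, and Mpped1 follows Nov, while the negative relation of Nov and Iyd leans on control male 1.

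Relations of the markers with the further lists, 100 in all, were read in the same way. Each list was taken as the mean log2 CPM of its genes, not as the summed CPM given above. The excitatory neuron genes had an r with Fibcd1 of 0.76 (permutation p = 0.00104, rho = 0.65 with permutation p = 0.00652, 0.61 without 2 animals) and with Rgs14 of 0.72 (permutation p = 0.00125, rho = 0.73 with permutation p = 0.0011, 0.65 without 2 animals), and of 0.55 to 0.63 with Bok, Pou3f1, Iyd and Amigo2. Further CA1 genes had an r of 0.69 with Pou3f1, 0.62 with Mpped1 and 0.53 with Wfs1, which came to 0.65, 0.38 and 0.48 without 2 animals. Further CA2 genes had an r of 0.62 with Rgs14, 0.57 with Iyd and 0.53 with Bok, or 0.43, 0.60 and 0.53 without 2 animals. Further CA3 genes had an r of 0.65 with Amigo2, 0.55 with Rgs14 and 0.50 with Fibcd1 of CA1, or 0.58, 0.55 and 0.38 without 2 animals. Other markers had a lower r with the further genes of their own field. These were Nov (0.47) and Fibcd1 (0.18) of CA1, Amigo2 (0.49) and Pcp4 (0.13) of CA2, and Iyd (0.42) and Bok (0.34) of CA3. Without 2 animals the same r came to 0.03, -0.03, 0.63, 0.08, 0.47 and 0.42. Bok had an r of 0.74 with oligodendrocyte genes (permutation p = 0.00223, rho = 0.63 with permutation p = 0.00501), at 0.52 without 2 animals. This was not particular to Bok. With the same genes r was 0.64 for Iyd, 0.58 for Rgs14, 0.46 for Pou3f1 and 0.44 for Pcp4. Without 2 animals these came to 0.16, 0.36, 0.12 and 0.44. It was 0.30 for Amigo2, 0.07 for Fibcd1, -0.43 for Wfs1 and -0.41 for Mpped1. Pcp4 had an r of 0.65 with striatal genes (permutation p = 0.0156, rho = 0.67 with permutation p = 0.00163, 0.52 without 2 animals) and of 0.58 with thalamic genes (permutation p = 0.00361, rho = 0.74 with permutation p = 0.00068, 0.71 without 2 animals). Nov had an r of -0.61 with oligodendrocyte genes and -0.55 with dentate genes, and Mpped1 of -0.61 with dentate and -0.60 with thalamic genes, which came to -0.35, -0.30, -0.41 and -0.41 without 2 animals each. How far field make-up, dissection or RNA of other cells entered these relations was not tested.

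For each marker, the 3 genes with the highest r over the 20 animals were read out, and these r are high by selection from all tested genes. The genes nearest to Wfs1 were Camk1g, a calcium/calmodulin-dependent kinase (r = 0.88), Rfc2 and Sorcs3. Nearest to Fibcd1 were Mmd2 (r = 0.89), Thsd4 and Syt3, a synaptotagmin. Nearest to Mpped1 were St8sia5, a sialyltransferase (r = 0.94), Fezf2, a transcription factor of deep-layer neocortical projection neurons (r = 0.91), and Chst8. Fezf2 is itself on the neocortical list. With the mean of that list, Mpped1 had an r of 0.43 (permutation p = 0.0955), at 0.47 without 2 animals. Nearest to Pou3f1 were Lrrc73 (r = 0.91), the muscarinic receptor Chrm3, and Sppl3, and nearest to Nov were the desmosomal cadherin Dsc3 (r = 0.90), the phosphodiesterase Pde1a, and Cadps2.

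For the CA2 markers, the genes nearest to Rgs14 were Susd6 (r = 0.93), Sebox and Asphd2, those nearest to Pcp4 were Tmem230 (r = 0.86), Duox2 and Sil1, and those nearest to Amigo2 were Ostf1 (r = 0.86), Ccdc3 (r = 0.85), itself on the list of further CA2 genes, and Rem2. For the CA3 markers, Bok was nearest to Hpca, the calcium sensor hippocalcin of pyramidal neurons (r = 0.93), the beta-actin gene Actb (r = 0.92) and Gpc1. Iyd was nearest to Nxpe3 (r = 0.89), Nr3c2, the mineralocorticoid receptor (r = 0.89), and Camk2b, the beta subunit of calcium/calmodulin-dependent kinase II (r = 0.86).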

How the data were processed

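Whole-hippocampus RNA of 20 mice was depleted of ribosomal RNA and sequenced. Reads were checked with FastQC, trimmed with Trimmomatic where needed, aligned to mm10 with HISAT2 and counted with featureCounts 1.5.0-p3 on Gencode genes. The authors deposited the whole-number counts, without normalization, and a gene table with lengths, positions and the mean RPKM over all samples. The mean equaled that recomputed from the counts and entered no test. Members and lists were chosen with earlier results of these data known. Members were taken by symbol, and genes named beside them were the 3 most alike per member and list genes with p under 0.005 in a comparison or at the lowest or highest value of a list. 1 list gene that this rule named is not reported here. The promoters to print were chosen after the values were seen.

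Genes were kept by filterByExpr (minimum count 10, minimum total 15), counts were scaled with TMM (edgeR 4.0.16), and a limma-voom model with empirical Bayes moderation was run in R 4.3.3 (limma 3.58.1) and adjusted by Benjamini-Hochberg over 19797 genes. All samples entered the fits for both sexes, sex and the interaction, and 1 sex each the others. Correlations used log2 CPM with an offset of 0.5 counts, with two-sided tests by 100000 permutations within groups. An r given without 2 animals, those farthest from a median, kept the group means of all animals. Where control male 1 and nPM female 1 are named as left out, group means were taken again. Libraries held 19092067 to 38663408 counts, so counting error was small for all markers but Iyd. Replicate numbers were not treated as pairs. No 2 samples of a group agreed within sampling noise. Alternatives were edgeR quasi-likelihood, DESeq2 1.42.0, RLE, no filter, quality weights, a replicate block, an age covariate, a joint fit of the 4 groups and leaving out each sample. The fits were tested on simulated data. Promoters came from RefSeq (GRCm38.p6). Figures were drawn with Python 3.11.15 and matplotlib 3.10.9.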

Additional observations from a re-analysis of the deposited data

Results flagged for a closer look

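Among the 40 sets of 5 animals, 10 markers in 4 groups, 5 held an animal that stood apart from the other 4 by Dixon's test with a critical value of 0.71, where chance gives about 1 in 20. All were male and all were the lowest of their group. Bok was at 14.7 CPM in control male 1, against 28.4 to 33.1 CPM in the other control males, and at 19.2 CPM in nPM male 4, against 28.3 to 32.7 CPM. Pou3f1 was at 12.04 CPM in control male 1, against 17.9 to 20.8 CPM, and at 18.5 CPM in nPM male 1, against 22.4 to 23.7 CPM. Amigo2 was at 16.3 CPM in nPM male 4, against 24.97 to 28.6 CPM.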

How the results depend on the processing

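With edgeR, DESeq2, RLE scaling, no filter, quality weights, an age covariate, a replicate block and the joint fit of the 4 groups, 0 of 10 markers passed p under 0.005 for exposure in both sexes, in males, in females and for the interaction. With 1 library left out, the count was 0 to 1 in males, the 1 being Amigo2 without nPM male 4, and 0 in the other exposure fits. For sex, 1 marker passed, against 2 with DESeq2, 0 with age as a covariate and 1 to 2 with 1 library left out (2, with Nov added, without nPM female 2, nPM female 3 or nPM male 1). Pairs with an r of -0.5 or less numbered 2, against 1 without subtraction of group means, 1 in females, 11 in males, 0 without control male 1 and nPM female 1, and 0 to 4 with 1 library left out (0 without control male 1, 1 without nPM female 1, 4 without nPM female 3). Over 1353 values for single markers and for counts of all genes under the alternatives, 1260 kept direction and side of the threshold, or a count within 1.5 times, and 60 changed sign, all of them differences that had not passed. The causes were not tested.

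Sign changes of log2 differences were these. For exposure in both sexes, Pcp4 was at -0.109 without control male 1 and nPM female 1. With quality weights Bok in males was at -0.0656 and Mpped1 at 0.0192 in the interaction. The interaction of Rgs14 was at -0.00346 with edgeR, -0.00342 with DESeq2, -0.000221 without filter, -0.0796 with weights, -0.00589 with age and -0.100 without both libraries, where Pou3f1 was at -0.0142. For sex, Fibcd1 was at -0.00101 with edgeR, -0.00180 with DESeq2, -0.0101 with weights, -0.00638 without both libraries and -0.108 in controls alone. With age, Wfs1 was at 0.288, Pou3f1 at 0.240, Amigo2 at -0.613 and Iyd at 0.233. Mpped1 was at -0.00447 without both libraries, Amigo2 at -0.0267 in controls alone and Pou3f1 at 0.00849 in nPM animals alone. With 1 library left out, differences for exposure in both sexes ran from -0.0448 to 0.112 for Pcp4 and from -0.138 to 0.0316 for Bok, and in males from -0.125 to 0.211 for Bok. In females they ran from -0.172 to 0.111 for Wfs1, from -0.112 to 0.183 for Fibcd1, from -0.208 to 0.0207 for Mpped1, from -0.0862 to 0.356 for Nov and from -0.0290 to 0.258 for Amigo2. For the interaction they ran from -0.169 to 0.0743 for Mpped1, from -0.133 to 0.134 for Rgs14 and from -0.00770 to 0.291 for Amigo2, and for sex from -0.0553 to 0.0969 for Fibcd1 and from -0.0155 to 0.121 for Amigo2.

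The same replicate number did not pair samples of different groups: 10 of 30 same-numbered pairs had a correlation of deviations over 0.1, from -0.416 to 0.283. With the replicate block, 21 genes passed p under 0.005 for exposure in both sexes against 28, 35 against 41 in males, 22 against 18 in females, 67 against 43 for the interaction and 5834 against 6147 for sex, and no call of a marker changed. Without the filter the counts were 71, 130 and 87 for exposure in both sexes, in males and in females, and 149 for the interaction, and with DESeq2 43, 113, 55 and 89. With edgeR the interaction gave 66. With weights the counts were 53 in both sexes and 44 in females, and with age 84 for sex. With 1 library left out, the counts ran from 17 (without control female 1) to 47 (without nPM female 4; 45 without control female 5) in both sexes, from 23 (without nPM male 5) to 78 (without nPM male 4) in males, from 10 (without nPM female 5) to 48 (without nPM female 4; 33 without nPM female 1) in females and from 24 (without control female 3) to 77 (without control female 1) for the interaction.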
